A study of Mus musculus with 22 samples.

Results

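Genes for membrane carriers of amino acids and related solutes were followed across the cell populations of the endothelial to haematopoietic transition (EHT) in the mouse embryo. The members were every row of the deposited count table whose symbol belongs to the solute carrier families Slc1, Slc3, Slc6, Slc7, Slc36, Slc38 or Slc43, which gave 59 of the 24454 gene symbols. The rule uses gene symbols and no measured value, but it was set with earlier results of these data known.

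The study asked how gene expression changes as endothelial cells of the aorta-gonad-mesonephros (AGM) region become blood progenitors. Bulk RNA-seq was made from 25 sorted cells per library of untreated C57BL/6 embryos, all from the VE-cadherin-positive gate, at embryonic stages E9.5, E10 and E11. The sort on CD44 and Kit gave 10 CD44Neg libraries (replicates 4 to 7 at E9.5, 8 to 10 at E10 and 1 to 3 at E11) and 6 CD44LowKitNeg libraries (replicate 14 at E9.5, 15 and 16 at E10, 11 to 13 at E11). There were 3 CD44LowKitPos libraries (replicate 19 at E9.5, 17 and 18 at E10) and 3 CD44High libraries (replicates 20 to 22, all at E11). The labels do not say which libraries came from separate embryos, so p-values measure the spread between these libraries, and the date-like number that ends each library description changes with the stage.

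Amino acids cross the plasma membrane mainly through carrier proteins. Slc3 proteins are heavy chains that bring Slc7 light chains to the cell surface, where the pair mostly exchanges one amino acid for another, while sodium-driven carriers such as the system A members of Slc38 load the cell with small neutral amino acids that the exchangers can then use. Leucine, glutamine and arginine brought in this way feed protein synthesis and are sensed by the mTORC1 kinase at the lysosome.

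Total counts per library ran from 3912350 to 8657546, and 19 to 30 of the 59 members had at least 1 count in a library. Levels are given as normalized CPM, which are counts scaled to library size by TMM over the 22 libraries, and errors are SD between libraries. For a gene without counts in a library the upper limit was set at 3 counts, or 0.347 to 0.815 normalized CPM, which covers counting error alone. Libraries of the same population and stage (20 pairs) differed by more than that, with a chi-square per degree of freedom of 17 to 85.2. *Cd44* was at 29.8 ± 19.5 CPM in CD44Neg and had means of 254 to 267 in the other populations, and *Kit* was highest in CD44LowKitPos at 229 (173 to 269) against means of 46.9 to 75.8 elsewhere. *Ptprc*, the blood marker CD45, had 0 counts in CD44Neg and reached 78.5 ± 43.5 CPM in CD44LowKitPos and 414 ± 30.1 in CD44High. The VE-cadherin gene *Cdh5* of the sort was detected in CD44Neg, CD44LowKitNeg and CD44LowKitPos, at 343 ± 143 (n = 10), 954 ± 253 (n = 6) and 167 ± 81.4 CPM (n = 3). In CD44High *Cdh5* had 0 counts in all 3 libraries, the 8 endothelial markers summed to between 14.2 and 78.7 CPM against 3513.6 to 5916 in CD44Neg, 3717 to 8654 in CD44LowKitNeg and 764 to 1852 in CD44LowKitPos, and 8 macrophage markers summed to 3054 to 4602 CPM. The macrophage sum was 167 to 230 CPM in CD44LowKitPos, 0 to 58.7 in CD44LowKitNeg and 1.20 to 16.9 in CD44Neg, and *Adgre1*, *C1qa* and *C1qb* were at 0 in all libraries of those 3 populations. Of the 8 endothelial markers, 3 were called lower in CD44LowKitPos against CD44Neg and 5 against CD44LowKitNeg. The share of counts of the ribosomal RNA gene *Rn45s* was 16.6% to 23.9% in CD44High, 6.82% to 9.26% in CD44LowKitPos, 7.29% to 19.2% in CD44LowKitNeg and 1.92% to 19.3% in CD44Neg.

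Of the 59 members, 10 had no count in any of the 22 libraries, 37 had counts in some libraries and 12 had counts in all. Of 33 members that passed the filter on low counts of the 22-library fit, 9 were called in at least 1 of 9 comparisons, for 18 calls in all. A call means an adjusted p under 0.01 in edgeR's quasi-likelihood test, adjusted over all genes tested by the method of Benjamini and Hochberg. A filter on counts can admit a gene through the population where it is high, so the counts of members called are read beside the share of all tested genes called in the same comparison. Of the called members, *Slc7a8*, *Slc6a13* and *Slc38a5* did not pass the filter over the CD44Neg and CD44LowKitNeg libraries alone. They entered the test through the populations where they are high, so their calls and non-overlap are a description and no separate support.

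**Figure D1:**
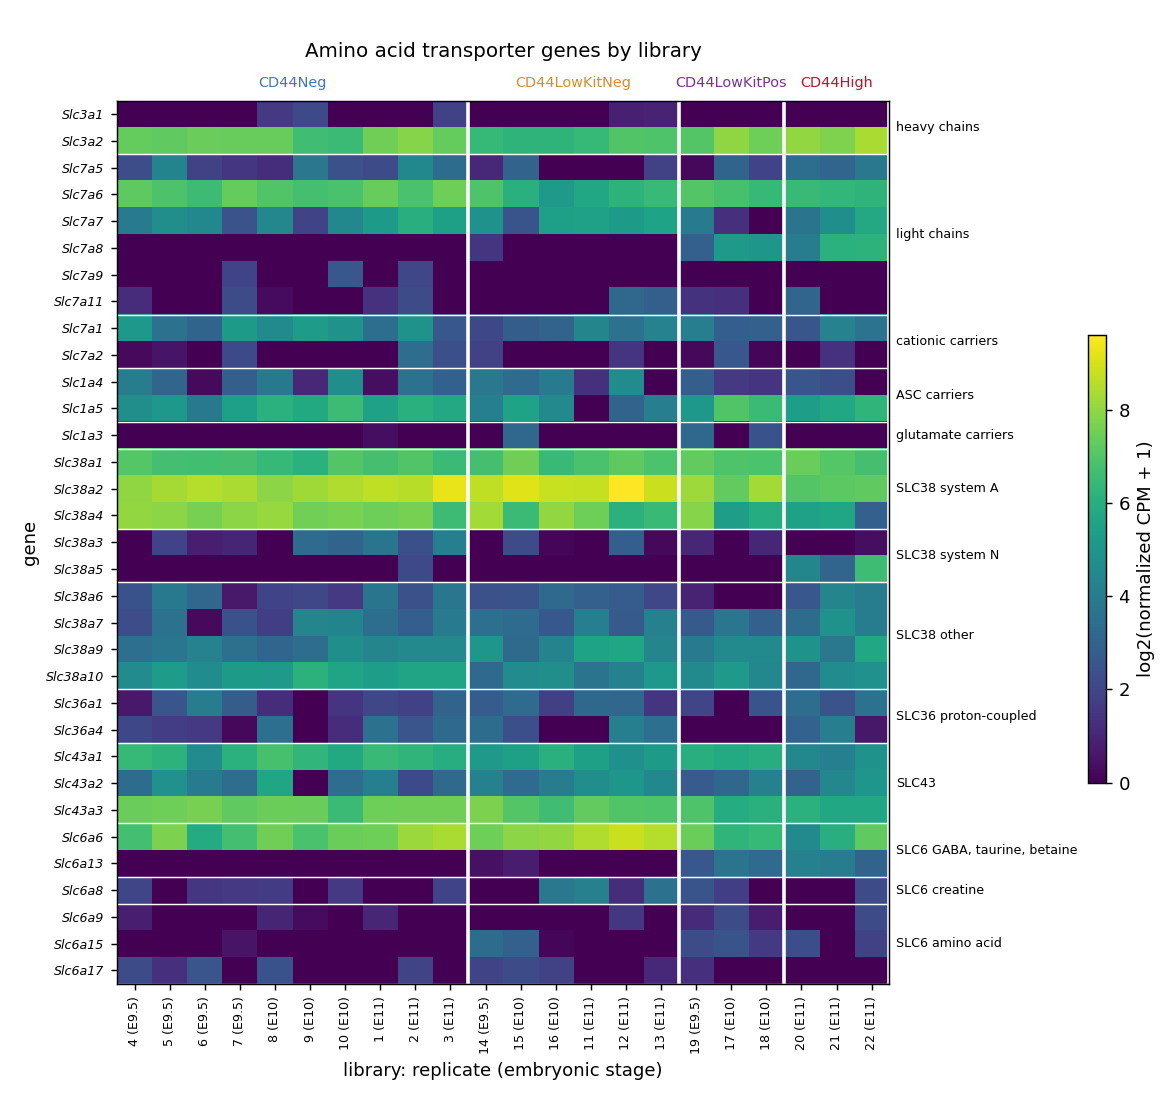
Levels of the 33 tested members (rows, grouped by role) in the 22 libraries (columns, grouped by population and ordered by stage), as log2(normalized CPM + 1) by colour. Slc7a8 and Slc6a13 are dark in CD44Neg and coloured in CD44LowKitPos and CD44High, Slc38a5 is bright in CD44High alone apart from CD44Neg replicate 2, and Slc38a2 is the brightest system A carrier in most libraries.

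The first pattern among the members was the appearance of 2 carrier genes in CD44LowKitPos and CD44High. *Slc7a8* encodes the neutral amino acid exchanger LAT2, a light chain that pairs with the heavy chain of *Slc3a2*, and *Slc6a13* encodes the GABA and taurine transporter GAT2. The promoters of the 4 members called higher are shown to set the sequence beside the expression, each from 250 bases before to 50 after the RefSeq start on GRCm38.p6. They lie at chr14:54781837-54782136 on the minus strand, chr6:121300038-121300337 on the plus strand (the first of the 3 starts listed for *Slc6a13*), chrX:8271131-8271430 on the plus strand and chr19:8713848-8714147 on the minus strand. The listed start of *Slc3a2* lies inside the gene span of chr19:8706882-8723369 and not at its outer end. Capitals mark a match on either strand to 1 of 5 short motifs that were searched, written here by their letters: the RUNX motif as TGTGGT, the motif of ETS factors as CCGGAAG, the motif of GATA factors as AGATAA, the palindromic E-box as CACGTG and the motif of ATF4 as TGATGNAA.
Slc7a8: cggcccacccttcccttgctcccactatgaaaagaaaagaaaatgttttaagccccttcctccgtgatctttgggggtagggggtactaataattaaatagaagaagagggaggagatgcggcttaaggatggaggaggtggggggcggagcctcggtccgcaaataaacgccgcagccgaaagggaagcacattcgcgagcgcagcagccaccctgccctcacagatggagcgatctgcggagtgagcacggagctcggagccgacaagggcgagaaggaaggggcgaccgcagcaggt
Slc6a13: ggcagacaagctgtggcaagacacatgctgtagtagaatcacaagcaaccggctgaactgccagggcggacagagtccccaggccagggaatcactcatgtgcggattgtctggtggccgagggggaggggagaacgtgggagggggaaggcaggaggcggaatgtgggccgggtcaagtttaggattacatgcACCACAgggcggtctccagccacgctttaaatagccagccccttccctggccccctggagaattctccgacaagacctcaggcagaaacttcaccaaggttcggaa
Slc38a5: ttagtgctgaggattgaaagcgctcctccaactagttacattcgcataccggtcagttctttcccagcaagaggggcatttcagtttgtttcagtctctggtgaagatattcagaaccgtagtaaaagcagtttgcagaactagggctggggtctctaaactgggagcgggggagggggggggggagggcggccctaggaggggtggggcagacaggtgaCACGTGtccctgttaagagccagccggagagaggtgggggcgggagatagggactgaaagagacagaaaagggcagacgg
Slc3a2: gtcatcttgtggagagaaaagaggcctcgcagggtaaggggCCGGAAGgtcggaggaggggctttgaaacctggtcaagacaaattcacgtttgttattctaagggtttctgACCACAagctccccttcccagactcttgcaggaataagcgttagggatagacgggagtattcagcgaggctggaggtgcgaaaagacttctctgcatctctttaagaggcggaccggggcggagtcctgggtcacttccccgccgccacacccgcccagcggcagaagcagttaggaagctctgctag
The *Slc7a8* window held none of the 5 motifs. The *Slc6a13* window had a RUNX match starting 56 bases before the start, the *Slc38a5* window an E-box match 30 bases before, and the *Slc3a2* window an ETS match 209 and a RUNX match 138 bases before. Over all 32851 promoter windows of the same length, 16.8% held the RUNX letters, 8.86% ETS, 11.2% GATA, 7.15% E-box and 3.97% ATF4, with no overlap between the matches shown. Windows were listed for 41 of the 59 members (62 windows), of which 11 held RUNX, 6 ETS, 5 GATA, 8 E-box and 4 ATF4. A match of letters is a description of the sequence and not a bound site.

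*Slc7a8* (chr14:54722215-54781886, GRCm38.p6) had 0 counts in all 10 CD44Neg libraries and in 5 of the 6 CD44LowKitNeg libraries, where replicate 14 from E9.5 had 15 counts, or 1.74 CPM. It was at 35.0, 33.2 and 6.62 CPM in CD44LowKitPos and at 15.4, 69.9 and 72.3 CPM in CD44High. Every CD44LowKitPos and CD44High library thus lay above every CD44Neg and CD44LowKitNeg library, with the lowest CD44LowKitPos value at E9.5. Set against the 3-count limit in CD44Neg, *Slc7a8* was at least 41.2-fold higher in CD44LowKitPos and at least 86.8-fold higher in CD44High (edgeR quasi-likelihood, adjusted p = 0.000405 and 2.91e-05). CD44LowKitPos exceeded CD44LowKitNeg by 86.2-fold (log2 6.25, SE 1.33, adjusted p = 0.0081), a ratio that rests on the 15 counts of replicate 14 and is at least 57.7-fold without it. This call was lost with the libraries from the shared stages alone (log2 5.30, adjusted p = 0.121), in the fit that included stage (log2 6.62, adjusted p = 0.0597) and by DESeq2's Wald test (log2 6.35, adjusted p = 0.0385), and leaving out 1 library in turn gave 10 of 22 fits with an adjusted p between 0.0102 and 0.0459. CD44High exceeded CD44LowKitNeg by 182-fold (adjusted p = 0.00104), or at least 121-fold without CD44LowKitNeg replicate 14.

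*Slc6a13* (chr6:121300288-121337721) had 0 counts in all 10 CD44Neg libraries and in 4 of 6 CD44LowKitNeg libraries, with 3 and 4 counts in replicates 14 and 15. It was at 11.9, 9.33 and 5.12 CPM in CD44LowKitPos and at 17.6, 15.7 and 7.34 CPM in CD44High. Both sets of libraries stood above all libraries of the other populations, and they overlapped each other. *Slc6a13* was at least 14.5-fold higher in CD44LowKitPos than in CD44Neg (adjusted p = 0.00101, and 0.0102 with shared stages alone) and at least 22.4-fold higher in CD44High (adjusted p = 0.000125). Against CD44LowKitNeg the difference was called in CD44High (log2 6.17, SE 1.46, adjusted p = 0.00562) and missed the threshold in CD44LowKitPos (log2 5.55, SE 1.43, adjusted p = 0.0201). The call in CD44High against CD44LowKitNeg was lost in 7 fits that left out 1 library, including each CD44High library (adjusted p = 0.0118 to 0.0217 without them). The ratio of 79.8 rests on 7 counts in CD44LowKitNeg and was 195 without its replicate 15. The betaine carrier gene *Slc6a12*, which lies 4852 bases from *Slc6a13*, had counts in 1 library only.

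In CD44LowKitPos against CD44Neg, these were the 2 of 33 members called (6.06%, both higher), against 3.48% of all 12949 genes tested, with 2.08% called higher. In CD44LowKitPos against CD44LowKitNeg 1 of 33 was called (3.03%, higher), against 4.26% of all genes, with 2.55% called higher. Libraries did not overlap for 3 and 6 members, against 9.66% and 16.9% of all genes. Of the 8 macrophage markers, 2 were called higher in CD44LowKitPos against CD44Neg and 1 against CD44LowKitNeg, their sum was the 167 to 230 CPM given above, and 3 (*Adgre1*, *C1qa* and *C1qb*) were at 0 in its 3 libraries. The sum of 8 markers of renal and coelomic epithelium was 68.3 to 81.3 CPM in CD44LowKitPos, 0 to 33.5 in CD44Neg, 26.5 to 87.1 in CD44LowKitNeg and 4.35 to 25.3 in CD44High, and 1 of the 4 tested was called higher against CD44Neg in CD44LowKitPos and 1 in CD44High. In CD44High the macrophage marker sum given above was high as well, with all 8 genes called higher against CD44Neg and against CD44LowKitNeg, and the part of these markers in the values of either population was not tested. In bulk libraries, fewer cells of a type and less RNA per cell cannot be told apart.

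**Figure D2:**
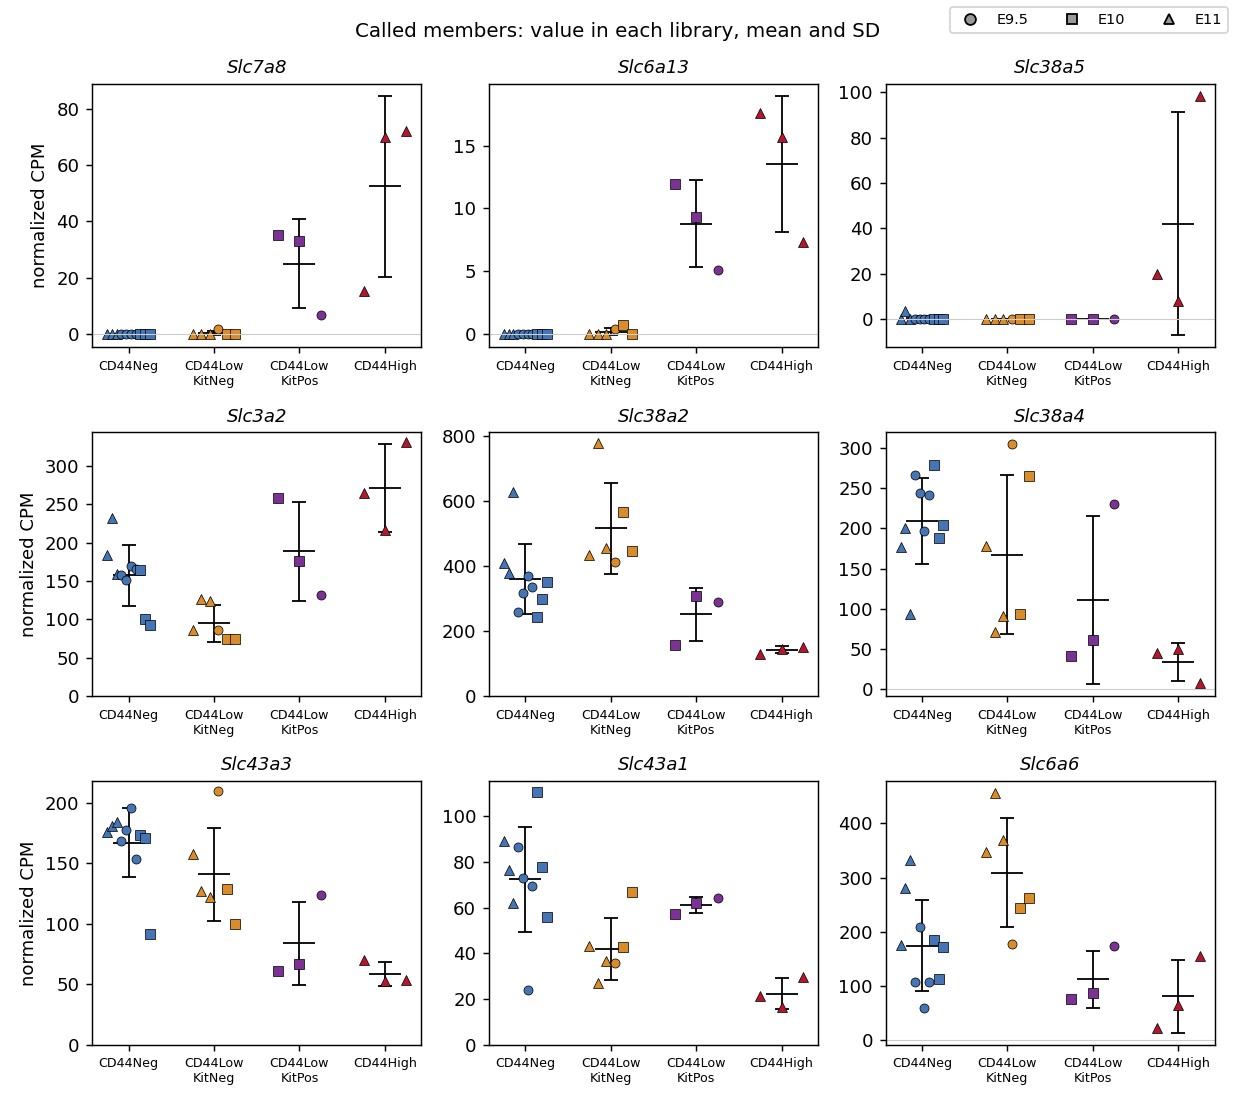
Normalized CPM of the 9 called members in each library by population, with marker shape for stage and bars for the mean and SD. Slc7a8 and Slc6a13 leave 0 in CD44LowKitPos and CD44High, Slc38a5 in CD44High, and for Slc38a2, Slc38a4, Slc43a3, Slc43a1 and Slc6a6 CD44High has the lowest mean of the 4 populations.

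*Slc3a2* encodes the heavy chain CD98hc (4F2hc), which carries *Slc7a5*, *Slc7a6*, *Slc7a7*, *Slc7a8* and *Slc7a11* products to the membrane. *Slc3a2* (chr19:8706882-8723369) ranged from 92.0 to 233 CPM in CD44Neg (median 162) and from 74.0 to 127 in CD44LowKitNeg (median 85.7). It was at 258, 176 and 132 CPM in CD44LowKitPos and at 265, 216 and 331 in CD44High. CD44LowKitNeg thus held the lowest values and CD44High the highest, and the 3 CD44High libraries lay above all 6 CD44LowKitNeg libraries. The difference between these was 2.85-fold (log2 1.51, SE 0.26, adjusted p = 0.000152), and with the E11 libraries alone it was 1.14 on the log2 scale with an adjusted p of 0.0254. All 3 CD44LowKitPos libraries also lay above CD44LowKitNeg, a difference that missed the threshold (log2 0.99, SE 0.27, adjusted p = 0.0167) and was called once stage entered the fit (log2 1.28, adjusted p = 0.00421), where *Slc3a2* and not *Slc7a8* was the member called. Against CD44Neg, CD44High had a log2 difference of 0.78 (SE 0.24, adjusted p = 0.0219) and overlapping libraries. *Slc3a1*, the heavy chain of the cystine and dibasic amino acid exchanger, had counts in 5 libraries, with a mean of 0.799 CPM in CD44Neg, and shares 26.5% of its exon bases with *Prepl* on the other strand.

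The light chain *Slc7a6* was the most abundant in all libraries but CD44LowKitNeg replicates 11 and 16, where *Slc7a7* was, and its share differed between libraries. Compared per kilobase of exon, *Slc7a6*, the light chain y+LAT2 of cationic and neutral amino acid exchange, made up a median of 74.7% of the summed light chain level in CD44Neg (48.7% to 91.7%), 57.0% in CD44LowKitNeg (37.7% to 81.3%), 71.8% in CD44LowKitPos (71.5% to 83.2%) and 37.6% in CD44High (32.5% to 65.6%). *Slc7a7*, its paralogue y+LAT1, took 7.77% to 62.3% in CD44LowKitNeg and 0% to 12.5% in CD44LowKitPos. The share of *Slc7a8* was 0% in CD44Neg, 0% to 0.962% in CD44LowKitNeg, 3.83% to 25.3% in CD44LowKitPos and 10.6% to 29.9% in CD44High. *Slc7a5*, which encodes the leucine exchanger LAT1, was low in all populations, with means of 8.04, 1.86, 3.51 and 10.4 CPM in CD44Neg, CD44LowKitNeg, CD44LowKitPos and CD44High. Its 3 CD44High values of 10.1, 7.71 and 13.3 CPM lay above all 6 CD44LowKitNeg values of 0 to 7.37 CPM, without a call (log2 2.48, SE 1.29, adjusted p = 0.165). These shares are a description and were not tested, and 7% of the *Slc7a7* exon bases overlap *Oxa1l* on the other strand. *Slc7a11*, the cystine and glutamate exchanger, had counts in 10 libraries and population means of 1.05 to 2.57 CPM.

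**Figure D3:**
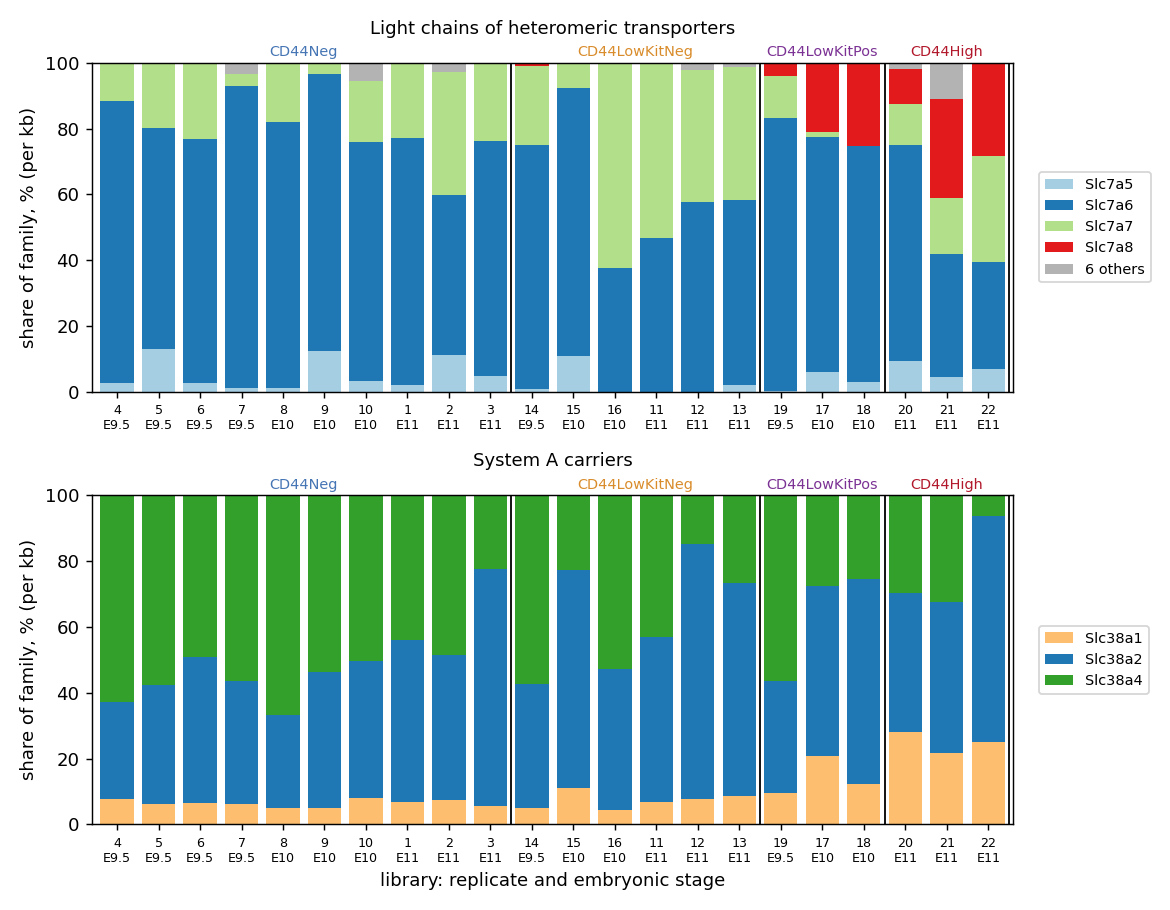
Share of each gene in the summed level per kilobase of exon of the light chains (top) and of the system A carriers (bottom) in each library, with libraries grouped by population. Slc7a8 takes up to 25.3% of the light chain level in CD44LowKitPos and up to 29.9% in CD44High, and Slc38a1 takes 21.7% to 28.2% of the system A level in CD44High against 4.96% to 7.89% in CD44Neg.

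The system A carriers load small neutral amino acids such as alanine, serine and glutamine with sodium, and 2 of the 3 were lower in CD44High. *Slc38a2*, which encodes SNAT2, ranged from 243 to 628 CPM in CD44Neg (median 341) and from 413 to 777 in CD44LowKitNeg (median 450.3). It was at 157, 307 and 290 CPM in CD44LowKitPos and at 130, 146 and 151 CPM in CD44High. The CD44High libraries were the 3 lowest of the 22, and no CD44LowKitPos library reached the CD44LowKitNeg range. The level in CD44Neg was 2.52 times and that in CD44LowKitNeg 3.62 times the CD44High level (log2 -1.33, SE 0.27, adjusted p = 0.000758, and log2 -1.86, SE 0.29, adjusted p = 4.98e-05). Between CD44LowKitPos and CD44LowKitNeg edgeR gave a log2 difference of -1.04 (SE 0.28, adjusted p = 0.0174). DESeq2's Wald test, which makes its own estimate of the difference, gave an adjusted p of 0.000722.

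*Slc38a4*, which encodes SNAT4 and is imprinted in the mouse, ranged from 93.9 to 279 CPM in CD44Neg (median 202) and from 70.9 to 305 in CD44LowKitNeg (median 135). It was at 40.6 and 60.7 CPM in the E10 CD44LowKitPos libraries, at 231 in the E9.5 one, and at 44.3, 49.5 and 6.79 in CD44High. CD44High lay below all CD44Neg and CD44LowKitNeg libraries but overlapped CD44LowKitPos. The log2 difference was -2.64 against CD44Neg (SE 0.60, adjusted p = 0.00193) and -2.32 against CD44LowKitNeg (SE 0.60, adjusted p = 0.00596). With the E11 libraries alone these were -2.26 and -1.86 with adjusted p of 0.0418 and 0.0919, and without CD44High replicate 22 they were -2.21 and -1.91 with adjusted p of 0.0134 and 0.0337. The call against CD44LowKitNeg was also lost once stage entered the fit (adjusted p = 0.0114) and without CD44LowKitNeg replicate 14 or 16 or CD44High replicate 20 or 21 (adjusted p = 0.0111 to 0.0145). *Slc38a1*, which encodes SNAT1, had population means of 106 ± 19.7 CPM (CD44Neg) to 137 ± 31.3 (CD44High), and no comparison called it (adjusted p of 0.252 and above between populations).

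Summed per kilobase, the 3 system A genes gave 82.0 to 101 CPM in CD44Neg, 79.5 to 124 in CD44LowKitNeg, 34.4 to 96.0 in CD44LowKitPos and 24.9 to 35.9 in CD44High. The 3 genes stand next to each other on chromosome 15, with 43953 bases between *Slc38a1* (96571418 to 96643438) and *Slc38a2* (96687392 to 96699728) and 295087 bases from there to *Slc38a4* (96994816 to 97055956), and no other protein-coding gene lies between them. In CD44High against CD44Neg and against CD44LowKitNeg the other members of this row were called lower and *Slc38a1* was not called, while against CD44LowKitPos none of the 3 was called (adjusted p of 0.124 and above).

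The system N carriers move glutamine and histidine with sodium and protons, and *Slc38a5*, which encodes SNAT5 (SN2), was seen almost only in CD44High. *Slc38a5* (chrX:8271381-8280179) had 0 counts in all CD44LowKitNeg and CD44LowKitPos libraries and in 9 of 10 CD44Neg libraries, where replicate 2 had 17 counts, or 3.30 CPM. Its CD44High values were 19.96, 7.71 and 98.6 CPM, so that all 3 lay above the other 19 libraries while differing widely from each other. It was at least 101-fold higher in CD44High than in CD44LowKitNeg (adjusted p = 0.00108) and 127-fold higher than in CD44Neg (log2 6.89, SE 1.46, adjusted p = 0.00201). Replicate 22 decided these calls, since without it the adjusted p was 0.0135 and 0.0607, the difference from CD44LowKitNeg at least 33.1-fold and that from CD44Neg 41.9-fold. DESeq2's Wald test did not call either difference (log2 10.61 and 6.97, adjusted p = 0.0818 and 0.267), nor did edgeR with stage in the fit (log2 9.73 and 5.49, adjusted p = 0.0116 and 0.091), and at E11 alone the difference from CD44Neg was 5.13 with an adjusted p of 0.0475. The sum of 10 erythroid markers was 283, 58.8 and 275 CPM in CD44High replicates 20 to 22 and 2.60 to 54.5 in all other libraries, the macrophage sum was 3054, 3626 and 4602, the sum of 8 mesenchyme markers was 205, 108 and 0.272 against 0 to 76.1 elsewhere, and their part in the *Slc38a5* values was not tested. Of the erythroid list, *Hba-a1*, *Hba-a2*, *Hbb-bs* and *Hbb-bt* were at 0 in every library of the series. *Slc38a3*, which encodes SNAT3, had population means of 5.43 CPM in CD44Neg, 1.72 in CD44LowKitNeg, 0.707 in CD44LowKitPos and 0.0906 in CD44High and was not called.

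The Slc43 family carries large neutral amino acids (*Slc43a1* and *Slc43a2*, which encode LAT3 and LAT4) and purine nucleobases (*Slc43a3*). *Slc43a3* (chr2:84936545-84958509) ranged from 91.3 to 196 CPM in CD44Neg (median 175) and from 99.4 to 210 in CD44LowKitNeg (median 128). It was at 61.0, 66.7 and 123 CPM in CD44LowKitPos and at 69.8, 52.4 and 53.8 CPM in CD44High. All CD44High libraries lay below both endothelial populations (log2 -1.51, SE 0.27, adjusted p = 0.00018 against CD44Neg, and log2 -1.26, SE 0.28, adjusted p = 0.00142 against CD44LowKitNeg). At E11 alone the second difference was -1.33 with an adjusted p of 0.0154. *Slc43a1* (chr2:84838855-84863586) ranged from 23.8 to 111 CPM in CD44Neg (median 74.6) and from 27.3 to 66.9 in CD44LowKitNeg (median 39.7), and was at 57.1, 61.9 and 64.3 in CD44LowKitPos and 21.2, 16.5 and 29.6 in CD44High. It was lower in CD44High than in CD44Neg (log2 -1.69, SE 0.36, adjusted p = 0.00105), although CD44Neg replicate 6 lay within the CD44High range. Against CD44LowKitNeg the difference was -0.91 (SE 0.36, adjusted p = 0.0638). The 2 genes lie 72958 bases apart. *Slc43a2* had population means of 10.5 to 20.1 CPM and was called nowhere.

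*Slc6a6* encodes the taurine transporter TauT. *Slc6a6* (chr6:91684048-91759063) ranged from 58.9 to 333 CPM in CD44Neg (median 174) and from 177 to 456 in CD44LowKitNeg (median 305). It was at 76.2, 86.1 and 173 CPM in CD44LowKitPos and 22.5, 63.6 and 154 in CD44High. CD44LowKitNeg thus held the highest values, and all 3 libraries of CD44LowKitPos and of CD44High lay below them. The CD44LowKitNeg mean was 3.86 times that of CD44High (log2 -1.95, SE 0.53, adjusted p = 0.00828). This call was lost at E11 alone (log2 -2.44, adjusted p = 0.0201) and in 6 fits without 1 library, with adjusted p of 0.0101 to 0.0457, and the ratio was 2.84 without CD44High replicate 20 and 7.18 without replicate 22. With CD44LowKitPos the log2 difference from CD44LowKitNeg was -1.47 (SE 0.52, adjusted p = 0.0631).

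In all, 8 of 33 members (24.2%) were called in CD44High against CD44LowKitNeg, 4 higher and 4 lower, where 16% of all 12949 genes tested were called (7.79% higher, 8.17% lower). In CD44High against CD44Neg 7 members (21.2%) were called, 3 higher and 4 lower, against 14.4% of all genes (7.14% higher, 7.25% lower). Libraries did not overlap for 9 and 7 members, against 25.3% and 18.8% of all genes. The median log2 difference of the tested members was 0.00 and 0.16, against 0.00 and -0.02 over all genes, and 0.06 and 0.22 against 0.02 and 0.01 with genes at 0 set to their bound. The comparisons share the CD44High libraries. In CD44High against CD44LowKitPos, edgeR called 0 of 33 members (3.01% of all genes), with 8 at an unadjusted p under 0.05, and DESeq2's Wald test called 2. Here 6 members did not overlap, against 23.9% of all genes, and since the libraries share no stage and do not overlap in the *Rn45s* share, population, that share, stage and that number of the descriptions cannot be told apart. *Slc38a6*, an orphan of the Slc38 family, was at 0, 0 and 0.903 CPM in CD44LowKitPos and at 5.14, 19.9 and 15.5 in CD44High (log2 5.40, SE 1.38, adjusted p = 0.017). *Slc36a4*, a carrier of proline and tryptophan, was at 0 in all 3 CD44LowKitPos libraries and at 7.12, 16.2 and 0.543 CPM in CD44High (adjusted p = 0.0475). In CD44Neg and CD44LowKitNeg the means were 6.38 and 5.54 CPM for *Slc38a6* and 4.42 and 6.78 for *Slc36a4*. By edgeR, CD44High was not called against these 2 populations (adjusted p = 0.404 and 0.335 for *Slc38a6*, 0.714 and 0.934 for *Slc36a4*). CD44LowKitPos was lower than CD44LowKitNeg without a call (log2 -4.12 and -8.31, adjusted p = 0.0312 and 0.0293).

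**Figure D4:**
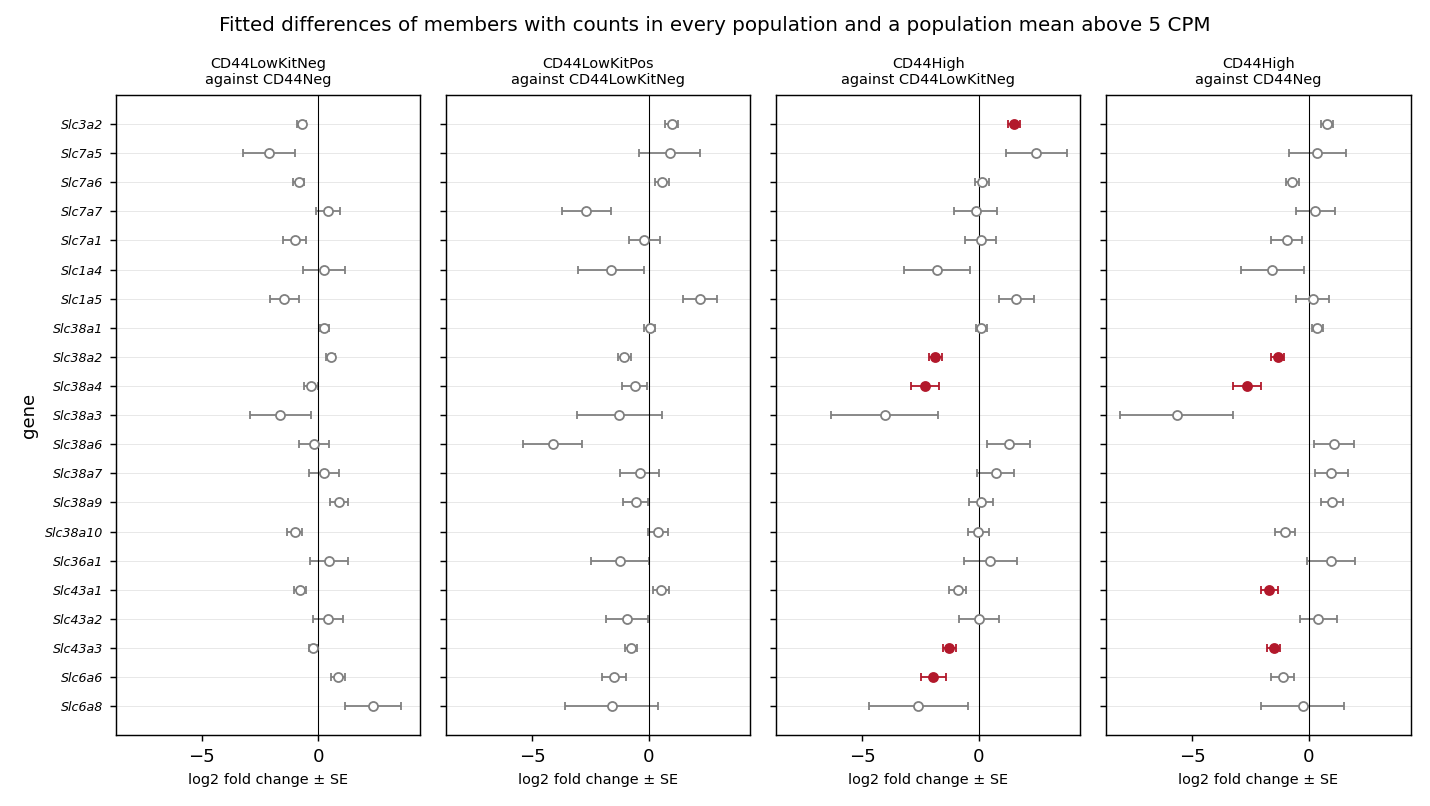
Fitted log2 fold changes with SE (edgeR quasi-likelihood) for the 21 members with counts in every population and a mean above 5 CPM in at least 1 of them, in 4 comparisons on a common axis, with calls at an adjusted p under 0.01 filled in red. No member is filled in CD44LowKitNeg against CD44Neg, and Slc38a2, Slc38a4 and Slc43a3 are filled on the negative side in both CD44High comparisons.

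Between the endothelial populations, CD44LowKitNeg and CD44Neg, edgeR called 0 of 23 members tested over 16 libraries, where 10.2% of all 11022 genes were called. At an unadjusted p under 0.05 there were 8 members, DESeq2's Wald test called 1, and the libraries of 0 members did not overlap against 5.58% of all genes. The member with the smallest adjusted p was *Slc7a6*, at 93.9 to 178 CPM in CD44Neg (median 125) and 34.6 to 122 in CD44LowKitNeg (median 70.4). Its level was lower in 5 of the 6 CD44LowKitNeg libraries than in every CD44Neg library, with replicate 14 from E9.5 as the exception (log2 -0.85, SE 0.23, adjusted p = 0.012). It was called with stage as a covariate, with all 22 libraries in the fit, by DESeq2's Wald test and without replicate 14. *Slc3a2* had a log2 difference of -0.72 (SE 0.20, adjusted p = 0.0153) and *Slc38a10*, a carrier of glutamine and other amino acids, one of -1.02 (SE 0.32, adjusted p = 0.0268), and each was called with stage as a covariate. With shared stages alone 0 members were called, and *Slc7a6*, *Slc3a2* and *Slc38a10* had adjusted p of 0.0464, 0.0921 and 0.192. *Slc43a1* was at -0.78 (SE 0.27, adjusted p = 0.0433) and *Slc6a6* at 0.84 (SE 0.29, adjusted p = 0.0488). The median log2 difference was 0.01 for the 23 members and 0.01 for all genes. Between these populations the sum of 8 neural markers was 121 to 707 CPM in CD44LowKitNeg and 92.0 to 153 in CD44Neg and the erythroid sum 20.4 to 54.5 and 2.60 to 23.7. The sum of 8 haematopoietic markers was 1140 to 2070 and 557 to 1242 CPM, with 1 of 6 tested called higher. The mesenchyme sum was 2.03 to 76.1 and 0 to 27.2 CPM, and 2 of 8 endothelial markers were called higher. The part of these markers in the member values and in those of the pathway genes given further on was not tested.

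No member was called in the 2 stage comparisons and the 1 interaction that were tested. Comparing E11 with E9.5 in CD44Neg (3 against 4 libraries), edgeR called 0 of 24 members tested, against 0.731% of all 10813 genes, and 6 had an unadjusted p under 0.05. DESeq2's Wald test also called 0. The libraries did not overlap for 7 members, against 21% of all genes. The *Rn45s* share did not overlap between these stages either (15.2% to 17.9% at E11 and 1.92% to 13.8% at E9.5), nor did the endothelial marker sum (5654 to 5916 CPM and 3513.6 to 4291, with 2 of 8 markers called higher at E11). The sum for renal and coelomic epithelium was also apart, at 0 to 2.14 CPM at E11 and 3.73 to 33.5 at E9.5. The part of this share and these sums was not tested. *Slc7a7* was at 36.5, 63.9 and 42.8 CPM at E11 and 14.0, 26.0, 21.2 and 4.44 at E9.5, so that the stages did not overlap, but the difference was not called (log2 1.56, SE 0.50, adjusted p = 0.111). *Slc6a6* was at 176, 282 and 333 CPM at E11 and 107, 208, 58.9 and 106 at E9.5 (log2 1.15, SE 0.35, adjusted p = 0.094). Its values in CD44LowKitNeg were 347, 456 and 370 CPM at E11, 243 and 262 at E10 and 177 at E9.5, which did not overlap between E11 and the earlier stages (log2 0.82, SE 0.23, adjusted p = 0.105). In that comparison edgeR and DESeq2 called 0 of 21 members, against 0.173% of all 11010 genes by edgeR, with 1 at an unadjusted p under 0.05. Libraries did not overlap for 6 members, against 25.3% of all genes. The E11 libraries also stood apart from the earlier ones in the *Rn45s* share (17.4% to 19.2% against 7.29% to 11.1%) and in 4 marker sums. The endothelial sum was 7219 to 8654 CPM against 3717 to 4997, and the macrophage sum 0 to 9.93 CPM against 28.9 to 58.7. The haematopoietic sum was 1848 to 2070 CPM against 1140 to 1344, with 1 of 7 tested markers called lower at E11. The mesenchyme sum was 29.2 to 76.1 CPM against 2.03 to 15.97. The part of these sums and of the share was not tested. The test of whether the difference between CD44LowKitNeg and CD44Neg depended on stage (E11 or E10, 11 libraries) called 0 of 28 members by edgeR and by DESeq2, against 0.00806% of all 12403 genes by edgeR, with 1 at an unadjusted p under 0.05.

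Expressed members without a call included the glutamine and serine carrier *Slc1a5* (ASCT2). *Slc1a5* was at 127, 91.8 and 33.6 CPM in CD44LowKitPos, at 39.9, 51.9 and 76.6 in CD44High, at 13.8 to 94.2 in CD44Neg (median 49.3) and at 0 to 47.1 in CD44LowKitNeg (median 16.6). Its log2 difference between CD44LowKitPos and CD44LowKitNeg was 2.21 (SE 0.73, adjusted p = 0.0475), with overlapping libraries. *Slc1a4* (ASCT1) had population means of 2.98 to 10.4 CPM. The arginine carrier gene *Slc7a1* (CAT1) had means of 22.4 CPM in CD44Neg and 9.71 to 11.7 in the other populations. *Slc38a9*, the lysosomal carrier that reports arginine to mTORC1, had means of 16.01 CPM in CD44Neg, 29.6 in CD44LowKitNeg, 20.2 in CD44LowKitPos and 31.7 in CD44High. The population means of *Slc38a7* were 8.30 to 17.9 CPM, of *Slc38a10* 20.2 to 41.4, of the lysosomal carrier *Slc36a1* 2.56 to 8.45 and of the creatine transporter *Slc6a8* 1.18 to 7.17. The other tested members, *Slc1a3*, *Slc6a9*, *Slc6a15*, *Slc6a17*, *Slc7a2* and *Slc7a9*, stayed under 5 CPM in the mean of every population, and *Slc6a9* shares 27.8% of its exon bases with *Ccdc24* on the other strand. In CD44LowKitPos against CD44Neg, *Slc1a3* (log2 6.62, adjusted p = 0.024, overlapping) and *Slc6a15* (log2 5.61, adjusted p = 0.0258) missed the threshold. *Slc6a15* was at 2.13 to 4.65 CPM in CD44LowKitPos, 0 to 0.43 in CD44Neg and 0 to 9.49 in CD44LowKitNeg.

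Ordered by level per kilobase, the leading members were *Slc38a4* (49.1 ± 12.5 CPM per kilobase), *Slc3a2* (44.7 ± 11.3) and *Slc38a2* (40.5 ± 12.2) in CD44Neg, whose neighbours in this order differed by less than their SD. In CD44LowKitNeg *Slc38a2* led at 58.3 ± 15.8, followed by *Slc38a4* at 39.2 ± 23.3 and *Slc6a6* at 36.5 ± 11.9. In CD44LowKitPos *Slc3a2* led at 53.5 ± 18.2, followed by *Slc38a2* at 28.4 ± 9.29. In CD44High *Slc3a2* led at 76.7 ± 16.3, and *Slc38a5* came next at 18.8 ± 22.0, a spread wider than its distance to the members that followed.

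The 26 members that did not pass the filter had a mean of at most 3.72 CPM in any population. The members without a count in any library included *Slc6a11* (a GABA transporter), *Slc6a5* (glycine), *Slc6a18* and *Slc6a19* (neutral amino acids, known from kidney and gut), *Slc7a12* and *Slc7a15* (light chain relatives), *Slc7a14*, *Slc36a3* and *Slc38a8*. The glutamate carriers *Slc1a1*, *Slc1a2*, *Slc1a6* and *Slc1a7*, the monoamine carriers *Slc6a2*, *Slc6a3* and *Slc6a4*, and *Slc6a7*, *Slc6a12*, *Slc6a14*, *Slc7a3*, *Slc7a4*, *Slc7a10*, *Slc7a13*, *Slc36a2* and *Slc38a11* had counts in 1 to 6 libraries each.

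The 3 other lists cover the wider amino acid pathway. Of 25 other amino acid carrier genes in the table, 4 of 18 tested were higher and 0 lower in CD44High against CD44LowKitNeg, and 3 were higher and 0 lower against CD44Neg. Over all genes tested, 7.79% were higher and 8.17% lower in the first comparison and 7.14% and 7.25% in the second. *Slc16a10*, the aromatic amino acid carrier TAT1, was at 0 in all 6 CD44LowKitNeg libraries and at 38.4 ± 16.9 CPM in CD44High (n = 3, adjusted p = 0.000517). *Slc15a3*, a lysosomal carrier of histidine and small peptides, was at 0 in the same 6 libraries and at 8.46 ± 5.07 CPM in CD44High (adjusted p = 0.00254). Against CD44Neg, where their means were 0.75 and 0.113 CPM, these genes had adjusted p of 0.00345 and 0.00584.

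Of 35 genes of mTORC1 amino acid sensing, 2 of 32 tested were higher and 0 lower in CD44LowKitNeg against CD44Neg, a share below the 10.2% of all genes called there. *Rragd*, which encodes the Rag GTPase D, was at 0.41 ± 0.855 CPM in CD44Neg (n = 10) and 12.3 ± 11.3 in CD44LowKitNeg (n = 6, log2 4.89, SE 1.16, adjusted p = 0.00519), and *Fnip1*, which encodes a partner of folliculin, was at 15.8 ± 8.96 and 52.6 ± 33.5 CPM (log2 1.75, SE 0.44, adjusted p = 0.00819). In CD44High 3 of 35 were higher and 0 lower against CD44LowKitNeg, and 4 higher and 1 lower against CD44Neg, shares that do not exceed the 16% and 14.4% of all genes called. *Sesn1*, which encodes a sestrin, was higher in both (log2 2.12 and 2.50, adjusted p = 0.00182 and 8.39e-05), as was the Ragulator subunit gene *Lamtor1* (log2 1.08 and 0.89, adjusted p = 0.00152 and 0.00399). The other genes called higher also encode Ragulator subunits, *Lamtor2* against CD44LowKitNeg (log2 1.16, adjusted p = 0.00554) and *Lamtor4* and *Lamtor5* against CD44Neg (log2 1.26 and 0.89, adjusted p = 0.00735 and 0.00156). *Sec13*, of the GATOR2 complex, was the gene called lower against CD44Neg (log2 -0.79, adjusted p = 0.00975).

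Of 24 genes of the amino acid response, 1 of 21 tested was higher and 2 were lower in CD44LowKitNeg against CD44Neg, near the 10.2% of all genes called there. *Asns*, which encodes asparagine synthetase, was at 124 ± 48.2 CPM in CD44Neg and 19.7 ± 15.9 in CD44LowKitNeg (log2 -2.64, SE 0.42, adjusted p = 0.000212), *Shmt2*, of mitochondrial serine use, at 111 ± 28.4 and 48.8 ± 19.2 (log2 -1.18, adjusted p = 0.00369), and the stress-induced *Nupr1* at 0.426 ± 1.01 and 25.3 ± 21.9 (log2 5.86, adjusted p = 0.000801). In CD44High against CD44LowKitNeg 6 of 24 were higher and 1 was lower (7.79% and 8.17% of all genes), led by *Asns* (log2 3.98, adjusted p = 8.34e-06) and *Phgdh*, the first enzyme of serine synthesis (log2 3.47, adjusted p = 0.000806), with *Vldlr*, a lipoprotein receptor, lower (log2 -7.13, adjusted p = 7.25e-05). Against CD44Neg the 3 genes called were near the 14.4% of all genes, and 2 were higher in CD44High, *Nupr1* (log2 5.87, adjusted p = 8.47e-05) and *Phgdh* (log2 2.52, adjusted p = 0.00356), and *Vldlr* was lower (log2 -6.16, adjusted p = 0.000221), as it was against CD44LowKitPos (log2 -6.81, adjusted p = 0.00054). *Phgdh* was also higher in CD44LowKitPos, at 297 ± 137 CPM, than in CD44LowKitNeg at 19.3 ± 19.5 (adjusted p = 0.00169) and CD44Neg at 37.3 ± 20.7 (adjusted p = 0.00281), where 2 of 24 genes of the list were higher and 0 lower in each comparison, against 2.55% and 2.08% of all genes called higher. The other genes called there were *Shmt2* against CD44LowKitNeg (log2 1.52, adjusted p = 0.00531) and *Nupr1* against CD44Neg (log2 7.56, adjusted p = 4.04e-05). Between stages in CD44Neg, *Asns* was lower at E11 than at E9.5 (log2 -1.24, adjusted p = 0.009).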

How the data were processed

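The bulk RNA-seq values are raw counts per gene symbol, made and deposited by the authors, who amplified the RNA of 25 sorted cells with SMART-Seq2 over 14 cycles, aligned reads with RNA STAR and then ran htseq-count. The submitters' processing notes name mm10, FastQC and HTSeq. The strand setting is not given in the sources used here, so reads of genes that overlap on opposite strands cannot be told apart. Libraries were grouped by their labels.

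Counts were filtered with filterByExpr (at least 10 counts, at least 15 in total), scaled by TMM and tested with edgeR's quasi-likelihood test (R 4.3.3, edgeR 4.0.16, limma 3.58.1, DESeq2 1.42.0), with Benjamini-Hochberg adjustment over all genes tested. CD44LowKitNeg was compared with CD44Neg over their 16 libraries, and the other population comparisons came from a fit of all 22. SE was derived from the F statistic. A group at 0 was set to the mean of 3 counts per library. Levels per kilobase used union exon lengths of GENCODE M21, and promoters were RefSeq's.

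The members, the other gene lists and the role groups were chosen with earlier results of these data known. Every member called in at least 1 comparison is named with its values. One item is not reported here. On simulated data, 115 of 194 changed genes were recovered with 0 false calls for CD44LowKitNeg against CD44Neg, 60 of 186 with 0 for CD44LowKitPos against CD44LowKitNeg, 57 of 187 with 0 for CD44High against CD44Neg, 96 of 192 with 1 for E11 against E9.5 in CD44Neg, 35 of 194 with 2 for the stages of CD44LowKitNeg, and 5 of 187 with 0 for the interaction (10367 to 12464 genes each). Alternatives were DESeq2's size factors and Wald test, no filter, stage as a covariate, shared stages alone and leaving out each library.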

Additional observations from a re-analysis of the deposited data

Results flagged for a closer look

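In 12 of 62 groups of 4 to 10 libraries of 1 population, 1 library stood apart from the others by Dixon's test at its 95% critical value, and these came from 10 libraries. Chance alone flags about 1 of 20 groups, a rate that does not apply where all other libraries are at 0, since any single count is then flagged, as in 6 of the 12. *Slc1a3* was at 0.265 CPM in CD44Neg replicate 1 and at 8.55 in CD44LowKitNeg replicate 15, with 0 in the other libraries of each population. *Slc6a9* was at 1.94 CPM in CD44LowKitNeg replicate 12, *Slc6a15* at 0.43 in CD44Neg replicate 7, *Slc7a8* at 1.74 in CD44LowKitNeg replicate 14 and *Slc38a5* at 3.3 in CD44Neg replicate 2, again with 0 in the others. *Slc7a2* was at 9.71 CPM in CD44Neg replicate 2 against 0 to 4.02, *Slc7a5* at 7.37 in CD44LowKitNeg replicate 15 against 0 to 2.63, and *Slc36a1* at 15.8 in CD44Neg replicate 6 against 0 to 7.42.

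Of the abundant members, *Slc38a2* was at 628 CPM in CD44Neg replicate 3 against 243 to 409 in the other libraries, *Slc38a10* at 70.8 in replicate 9 against 23.9 to 48.2, and *Slc43a3* at 91.3 in replicate 10 against 154 to 196.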

How the results depend on the processing

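None of the member fold changes with an adjusted p under 0.05, which were the ones recomputed, changed direction under an alternative, and 8 of the 18 calls passed the threshold in every alternative that gave a value. These were *Slc7a8* in CD44LowKitPos against CD44Neg and in CD44High against both CD44Neg and CD44LowKitNeg, *Slc6a13*, *Slc43a3* and *Slc43a1* in CD44High against CD44Neg, and *Slc38a2* in CD44High against both. The thresholds at 0.05 and the fit of all 22 libraries for CD44LowKitNeg against CD44Neg were chosen after seeing the data. Members called in CD44LowKitNeg against CD44Neg went from 0 to 1 by the Wald test of DESeq2, 3 with a stage covariate, 5 at 0.05 and 1 with all 22 libraries. In CD44LowKitPos against CD44LowKitNeg they went from 1 (higher) to 6 with the Wald test (1 higher, *Slc6a13*, and 5 lower, among them *Slc38a2*, *Slc38a6* and *Slc36a4*), 0 with shared stages alone and 7 at 0.05, and in CD44LowKitPos against CD44Neg from 2 to 5, 1 and 6. In CD44High against CD44LowKitPos they went from 0 to 2 with the Wald test and 4 at 0.05, and in CD44High against CD44LowKitNeg from 8 to 4 with shared stages alone. Shared stages leave fewer libraries, and the cause of the other shifts was not tested. Leaving out 1 library at a time gave 0 to 1 members in CD44LowKitNeg against CD44Neg (1 without CD44Neg replicate 3, 6 or 10 or CD44LowKitNeg replicate 14), and 0 to 3 in CD44LowKitPos against CD44LowKitNeg (3 without CD44LowKitPos replicate 19, 2 without CD44Neg replicate 3, and 0 without CD44Neg replicate 5, CD44LowKitNeg replicate 11, 12, 13, 15 or 16, CD44LowKitPos replicate 17 or 18 or CD44High replicate 21 or 22). It gave 2 to 4 in CD44LowKitPos against CD44Neg (4 without CD44LowKitPos replicate 19) and 0 to 1 in CD44High against CD44LowKitPos (1 without CD44Neg replicate 6 or CD44LowKitPos replicate 19). It gave 5 to 8 in CD44High against CD44LowKitNeg (5 when either CD44High replicate 20, 21 or 22 was left out) and 5 to 7 in CD44High against CD44Neg (5 without CD44High replicate 22). The stage comparisons and the interaction stayed at 0 in every alternative. No paired analysis was made, because the labels do not say which libraries came from the same embryos. With 3 libraries in CD44LowKitPos and CD44High, members under about 5 CPM rest on few counts.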
